A study of Mus musculus with 10 samples.

Results

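HEB, the product of Tcf12, had 3700 regions in SB431542-treated differentiating mouse cells that overlapped no region of the other 5 ChIP-seq lists by even 1 bp. They made up 36.5% of the 10145 nuclear regions of that list, and all 6 lists together held 78263 regions. These regions are called SB-only below, and the other 6445 regions of the same list are called shared. The regions were chosen by the measured positions of enriched regions in the 6 lists, so membership, heights and tags are described without a test.

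Chromatin immunoprecipitation followed by sequencing was done in CGR8, a mouse embryonic stem cell (ESC) line grown in serum with LIF, and in endoderm made from it. The untreated groups were ESC SMAD2/3, ESC HEB, Endoderm SMAD2/3 and Endoderm HEB, and SB431542 gave ESC+SB HEB and Endoderm+SB HEB. Endoderm was made in serum-free culture with Activin A at 100 ng/ml from day 2 until fixation at day 4. SB431542, an inhibitor of the type I receptor kinases for TGF-beta, activin and Nodal, was given at 10 µM for 24 hours to ESCs and for 48 hours to differentiating cells. The labels do not settle whether Activin A was also present in the SB431542-treated differentiating cells, so SB431542 and a lack of Activin A cannot be told apart. SMAD2/3 was not profiled with SB431542. All groups are 1 cell line with 1 ChIP library each, so no replicate spread exists and every difference below compares these libraries only. The ChIP tags in all regions of a list ranged from 933126 (ESC SMAD2/3) to 5051930 (Endoderm HEB), with 2284735 in Endoderm+SB HEB. These sums include any mitochondrial regions. They also depend on the number and width of the regions, so they are not library depths. A region missing from a list can lie just under that list's lowest height, which was 25.0 in 5 lists and 28.0 in ESC+SB HEB.

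HEB is an E protein, a basic helix-loop-helix (bHLH) transcription factor that binds DNA as a dimer at E-boxes, which read CANNTG. E proteins pair with one another or with tissue-restricted bHLH factors, among them the proneural factors Neurog1 and Neurog2, and Id proteins hold them off DNA. Activin and Nodal signals act through SMAD2 and SMAD3 and direct differentiating ESCs toward mesendoderm, and blocking them is a common way to favour neural fates.

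The deposited lists hold positions and no sequence, and no sequence of the regions themselves was read here. The 250 bases before the RefSeq start are shown for 4 genes whose 5′ end an SB-only region covered. Hes5, a Notch target that holds neural progenitors undifferentiated, and Tcf3, which encodes the E protein E2A, are shown because no other list had a region for them. Zfpm1 and Ptprz1 are shown as examples whose SB-only regions were among the tallest at a 5′ end. Those of Sorbs2 (90.3) and Spsb1 (89.4), taller than that of Ptprz1 (82.2), are not shown. Zfpm1 encodes the GATA cofactor FOG-1, and Ptprz1 a receptor tyrosine phosphatase of neural progenitors and glia. The letters come from the RefSeq table of build GRCm38.p6 and run 5′ to 3′ on the gene's strand, with CANNTG in capitals. Their spans are chr4:154960673-154960922 (plus strand) for Hes5, chr10:80433636-80433885 (minus strand) for Tcf3, chr8:122281891-122282140 (plus strand) for Zfpm1 and chr6:22875252-22875501 (plus strand) for Ptprz1.
Hes5: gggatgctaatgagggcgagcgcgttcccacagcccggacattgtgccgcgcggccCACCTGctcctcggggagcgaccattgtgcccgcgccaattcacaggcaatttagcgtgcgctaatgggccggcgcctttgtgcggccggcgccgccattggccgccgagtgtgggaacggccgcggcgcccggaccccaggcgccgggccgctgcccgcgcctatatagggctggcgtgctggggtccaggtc
Tcf3: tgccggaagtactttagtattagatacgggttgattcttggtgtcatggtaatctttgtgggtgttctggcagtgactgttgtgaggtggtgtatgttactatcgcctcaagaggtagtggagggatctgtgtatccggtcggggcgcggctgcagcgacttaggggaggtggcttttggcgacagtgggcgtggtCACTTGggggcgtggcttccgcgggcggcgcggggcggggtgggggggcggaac
Zfpm1: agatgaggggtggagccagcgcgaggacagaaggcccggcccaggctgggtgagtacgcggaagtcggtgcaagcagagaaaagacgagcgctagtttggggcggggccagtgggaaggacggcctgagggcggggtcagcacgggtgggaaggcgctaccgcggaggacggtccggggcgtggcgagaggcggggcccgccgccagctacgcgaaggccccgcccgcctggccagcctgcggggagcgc
Ptprz1: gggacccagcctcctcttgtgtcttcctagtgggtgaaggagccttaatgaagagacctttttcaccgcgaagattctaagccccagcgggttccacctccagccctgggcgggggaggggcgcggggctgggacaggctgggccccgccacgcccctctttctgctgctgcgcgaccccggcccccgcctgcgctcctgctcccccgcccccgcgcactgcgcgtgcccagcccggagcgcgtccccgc
Hes5 held 1 E-box, CACCTG, beginning 194 bases before the start, and Tcf3 held CACTTG, beginning 54 bases before it. Zfpm1 and Ptprz1 held no CANNTG in these windows.

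An E-box was no more frequent in promoters of genes with an SB-only region over the 5′ end than in all promoters. Among 300-base RefSeq promoters (250 bases before to 50 after the start, either strand) of genes with an SB-only region over the 5′ end, 519 of 815 held CANNTG (63.7%, 95% CI 60.3 to 67.0). All 32851 promoters of that length held it in 72.3%, and promoters of genes with a shared region over the 5′ end in 62.1%. Every RefSeq promoter of a gene was counted, whether or not a region covers it. Genes with both kinds of region over a 5′ end were left out of both sets. CAGCTG stood in 14.1% of the SB-only set and in 16.3% of all promoters. CACCTG or its complement CAGGTG stood in 17.1% against 20.2%, and CATCTG or its complement CAGATG in 10.8% against 17.2%. All of these words are also counted under CANNTG. RefSeq promoters were matched for 665 of the 813 genes, and a word in such a window is a match of letters, not a site.

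Most SB-only regions lay away from gene starts. The authors listed a gene where a region was inside it or within 1 kb of it, and a region within 1 kb of the listed 5′ end is called promoter-proximal. Of the SB-only regions, 857 were promoter-proximal (23.2%, 95% CI 21.8 to 24.6), 1190 were inside a gene (32.2%) and 33 were beside a gene (0.892%). The other 1620 had no gene listed (43.8%, 42.2 to 45.4). Among the shared regions, 41.0% were promoter-proximal (39.8 to 42.2), 24.7% inside a gene and 33.6% without a gene (32.4 to 34.7). SB-only regions were thus less often at 5′ ends and more often inside genes or without a listed gene. These margins were wider than the intervals, which cover counting error only. No exon, intron or UTR annotation of build mm9 was used here.

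**Figure D1:**
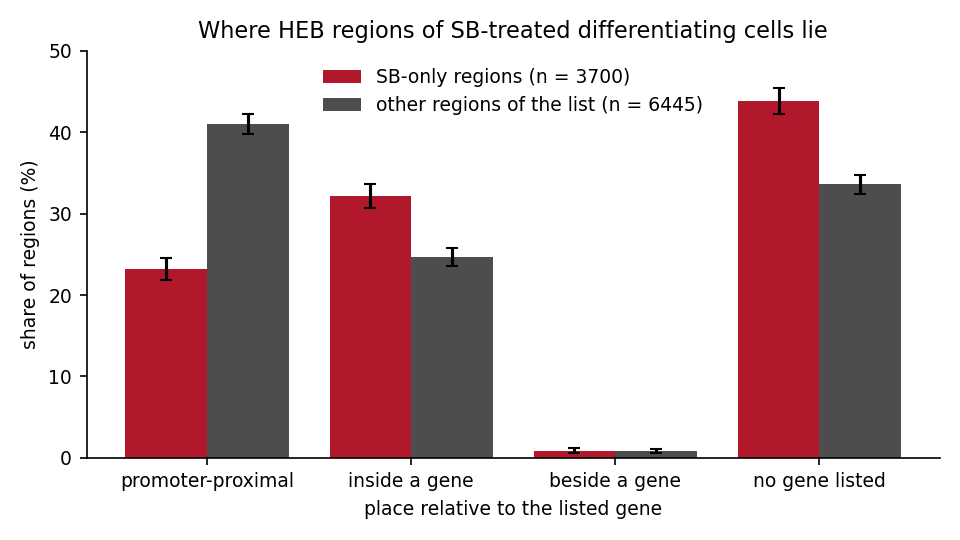
Share of regions (%) by place relative to the listed gene, for the 3700 SB-only and 6445 shared regions of the Endoderm+SB HEB list; bars are shares and whiskers exact 95% intervals. Promoter-proximal regions made up 23.2% of the SB-only and 41.0% of the shared regions.

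The gap at promoters was present at every height. Height is the deposited height of the ChIP profile at a region's summit. From the lowest to the highest quintile of the list's heights, the promoter-proximal share fell from 36.6% to 5.86% of SB-only regions and from 52.7% to 13.0% of shared regions. At the heights of the SB-only regions the shared ones would have had 42.5%, a difference of -19.4 percentage points (95% CI -21.1 to -17.6). At equal tag enrichment, the deposited ratio of ChIP to input tags, it was -10.03 points (-11.6 to -8.47). The difference kept its sign on both scales and was smaller on the second. In the lowest quintile of enrichment the intervals overlapped, at 66.0% of SB-only regions (61.6 to 70.2) and 68.7% of shared ones (66.3 to 71.0). The same rule was applied to the other lists. Regions found only in Endoderm HEB were promoter-proximal in 4.36%, against 22.9% of its other regions. For ESC HEB the shares were 6.66% and 20.1%, and for ESC SMAD2/3 7.72% and 15.7%. Regions only in Endoderm SMAD2/3 reached 31.3% against 30.1%, and those only in ESC+SB HEB 36.3% against 27.2%. A lower promoter share in list-only regions was thus not particular to Endoderm+SB HEB, and ESC+SB HEB went the other way.

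**Figure D2:**
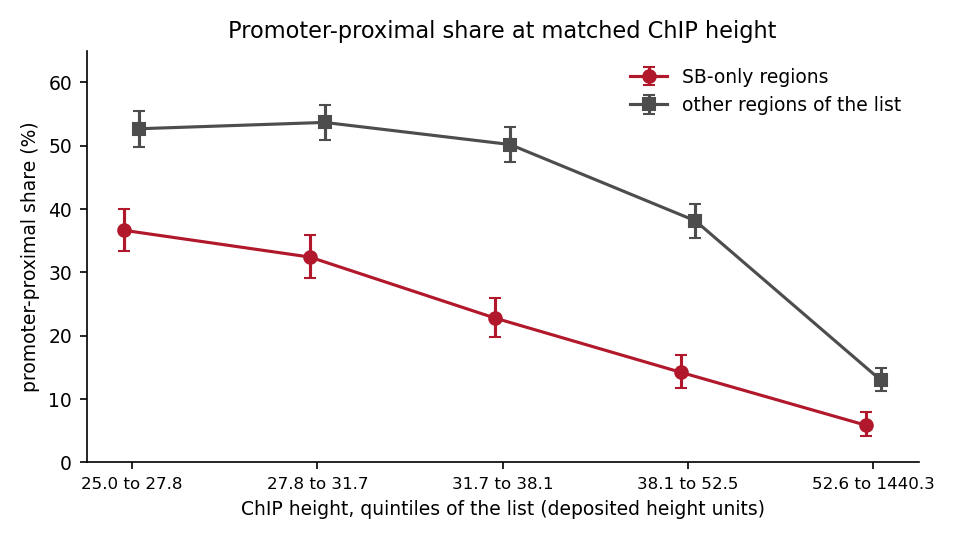
Promoter-proximal share (%) in quintiles of ChIP height of the Endoderm+SB HEB list, for SB-only and shared regions, with exact 95% intervals. The SB-only share was lower in all 5 quintiles and ended at 5.86% in the highest.

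SB-only regions were mostly low, like the list they came from. Their median height was 33.5 (quartiles 28.2 and 45.7, range 25.0 to 245), against 35.0 for shared regions, whose highest reached 1440. They made up 32.5% of the 2256 list regions of height 50 or more, 26.9% of the 536 of height 100 or more and 19.4% of the 62 of height 200 or more (95% CI 10.4 to 31.4). The tallest ranked 30th in the list. The median SB-only region was 535 bp wide and held 152 ChIP tags against 15 input tags, and a shared one was 563 bp wide with 158 against 19. Tag enrichment was 10.8 at the median for SB-only regions and 8.51 for shared ones. The promoter-proximal SB-only regions were weaker, with a median height of 29.4 and enrichment of 6.63, than those elsewhere, with 35.8 and 12.4. Shared regions showed the same contrast, with 31.7 and 6.52 at promoters and 39.2 and 11.0 elsewhere. Between SB-only and shared regions, median enrichment was thus close at promoters.

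The nearest region of another list was usually far off. The median gap was 18480.5 bp to the nearest region of any other list and 34372 bp to the nearest Endoderm HEB region (quartiles 10624.5 and 91807.5). For 1539 SB-only regions (41.6%) the nearest region of another list was from Endoderm HEB, the longest list. An SB-only region within 1 kb of an Endoderm HEB region adjoins it and marks no separate site, and 203 regions did so (5.49%, 95% CI 4.77 to 6.27). Within 1 kb of any other list lay 336 (9.08%), so 3364 (90.9%) stood more than 1 kb from every region of the other 5 lists. The median height was 34.0 in the 203 adjoining regions and 33.5 in the rest, and 23.6% of them were promoter-proximal. A further kind of neighbour was a shared region of the same list, which lay within 1 kb of 142 SB-only regions (3.84%).

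The edge of the rule fell between regions that hardly differ. The closest SB-only region, chr4:109532098-109533215 inside Faf1, which encodes a FAS-associated factor, lay 1 bp from an Endoderm SMAD2/3 region and had a height of 154. Next came chr16:30038308-30039286, 19 bp away with 99.1, and chr7:86722914-86723547, 23 bp away with 45.4. Just outside the rule, chr5:136379140-136379834 overlapped another list by 2 bp at a height of 27.1, and chr17:29594796-29596008 and chr18:57422340-57423123 by 6 bp at 76.2 and 82.0. Of the SB-only regions, 575 (15.5%) lay within 10 kb of another SB-only region, in 266 groups of at most 4. No comparison with the shared regions is made, since that set is larger and such a share rises with the number of regions.

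**Figure D3:**
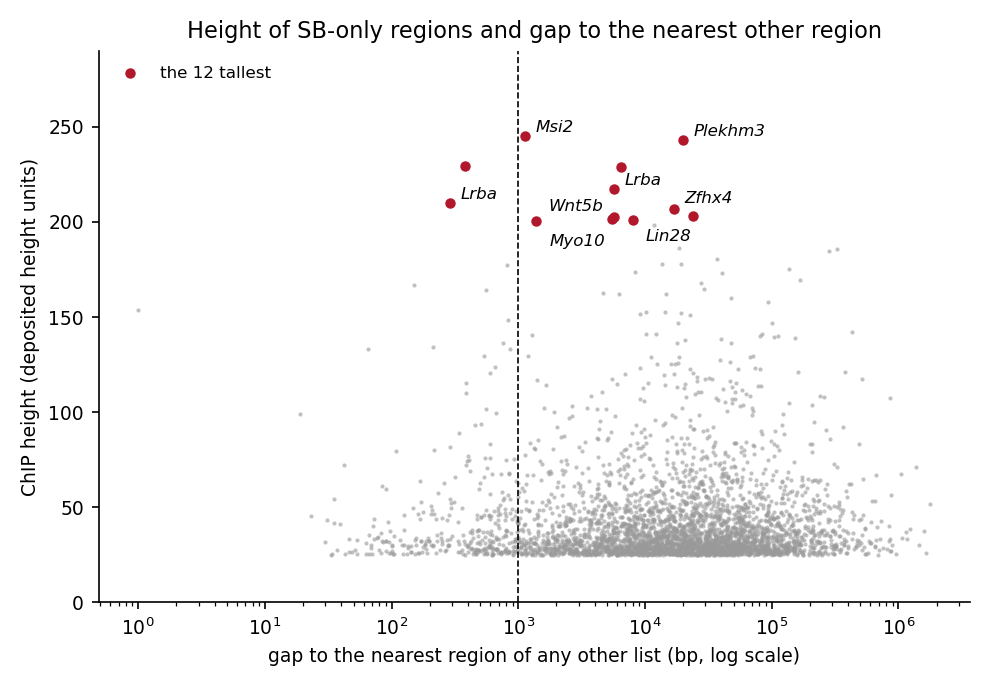
ChIP height (deposited units) of each of the 3700 SB-only regions against its gap (bp, log scale) to the nearest region of any other list; red points are the 12 tallest, named where a gene is listed, and the dashed line marks 1 kb. A pair of the 12 tallest, 1 in Lrba and 1 with no gene, lay within 1 kb of another list.

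The tallest SB-only regions lay inside genes or between them, none at a 5′ end. The highest, at 245, was at chr11:88398428-88399369 inside Msi2, which encodes an RNA-binding protein of neural and blood progenitors, and held 1379 ChIP and 39 input tags. Msi2 also had 28 ESC HEB regions of heights up to 190, 22 ESC+SB HEB regions up to 143 and 13 Endoderm HEB regions up to 87.5. In deposited units, which have no stated scaling between lists, the SB-only region was taller than all of these. It lay 1130 bp from an ESC+SB HEB region. Plekhm3 followed with 243 at chr1:64962406-64964039. An intergenic region at chr14:13169822-13171151 reached 230, and it lay 378 bp from an Endoderm HEB region, which it adjoins. Another without a gene, chr7:56951500-56952448, reached 229. The rest of the 12 tallest were 2 regions in Lrba (217 and 210), Zfhx4 (207), an intergenic region at chr5:13313921-13314531 (203), Wnt5b (202), Myo10 (201), the gene listed as Lin28 (201) and chr18:66174888-66175818 (201). Zfhx4 encodes a large homeodomain zinc finger protein, Wnt5b a Wnt ligand and Myo10 a motor protein of filopodia.

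Lrba held the strongest group of SB-only regions. It encodes a protein of vesicle traffic, and Mab21l2, a gene of eye and midbrain development, lies inside it in RefSeq. The regions chr3:86375199-86375991, chr3:86376273-86377110 and chr3:86504806-86505714 had heights of 162, 217 and 210. Their ChIP and input tags were 944 and 12, 958 and 30, and 1158 and 19. Elsewhere in Lrba the highest region was 72.7 in ESC HEB, 53.1 in ESC+SB HEB, 38.9 in Endoderm SMAD2/3 and 33.8 in Endoderm HEB, and ESC SMAD2/3 had none. In deposited units, the SB-only heights thus stood above every other region of the gene. The region at 210 lay 289 bp from an Endoderm HEB region of height 32.6 and so adjoins it, and a shared Endoderm+SB HEB region of 69.8 lay there too, while the other pair lay 4635 and 5709 bp from one. At the 5′ end of Mab21l2 the regions were low and shared, at 29.5 in Endoderm SMAD2/3, 25.1 in Endoderm HEB and 32.6 in Endoderm+SB HEB.

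By tag enrichment the leading SB-only region was inside Cadps, a gene of dense-core vesicle release, at chr14:13222157-13222621. It had 612 ChIP and 6 input tags and a deposited enrichment of 74.9, which is not their quotient. The deposited enrichment equalled ChIP over input tags (within 0.1%) in 3205 SB-only regions (86.6%). The Cadps region lay 149 bp from an Endoderm HEB region and so adjoins it. Lrba followed with 67.8 and, after an intergenic region at chr2:6182072-6182909 with 63.1, with 60.9. Of the 12 of highest enrichment, 9 had no gene listed, among them chr8:33164143-33164794 (56.2) and chr5:13313921-13314531 (55.1).

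Some genes of the neural lists had SB-only regions, but the neural lists as a whole were near the share of all genes. An SB-only region was listed for 1785 of 21896 protein-coding genes (8.15%), and any Endoderm+SB HEB region for 5043 (23.0%). Of 106 genes in the lists of proneural and neural bHLH factors, neural transcription factors and the Notch pathway, 12 had one (11.3%), near the share of all genes. The same 106 genes had a region of any kind in Endoderm+SB HEB for 55, in Endoderm HEB for 63 and in ESC HEB and ESC+SB HEB for 80 each. Over all protein-coding genes the counts were 5043 in Endoderm+SB HEB, 5441 in Endoderm HEB, 5279 in ESC HEB and 6540 in ESC+SB HEB. Of the 12 neural-list genes with an SB-only region, 2 were listed for no other region of any list, against 705 of the 1785.

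Among the bHLH genes only Neurog1, a proneural factor of sensory and forebrain neurons, had an SB-only region, 1 of 18 genes. It lay at chr13:56351113-56351741, 119 bp beyond the gene and 1783 bp from its 5′ end, with a height of 36.0 and 161 ChIP against 18 input tags. At the 5′ end itself HEB was listed at 43.3 in ESC HEB, 46.1 in ESC+SB HEB and 25.7 in Endoderm+SB HEB, and Neurog1 had no region in Endoderm HEB or either SMAD2/3 list. The SB-only region was 600 bp from the ESC HEB region, so Neurog1 was not marked with SB431542 alone. Neurog2, its close relative, had no SB-only region. Its Endoderm+SB HEB region, chr3:127335248-127335836 with a height of 26.8, overlapped that of ESC+SB HEB (53.1), and ESC HEB (34.9) and Endoderm SMAD2/3 (29.7) had regions of their own.

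In the Notch pathway 4 of 26 genes had SB-only regions. Jag1, a Notch ligand, had 4, of heights 134, 97.8, 86.1 and 38.7, all inside the gene. Its highest region was 30.1 in ESC SMAD2/3, 39.7 in ESC HEB, 48.3 in ESC+SB HEB, 48.3 in Endoderm SMAD2/3 and 34.1 in Endoderm HEB. The tallest SB-only one lay 213 bp from an ESC+SB HEB region and 550 bp from an Endoderm HEB region, which it adjoins, so it marks no separate site. A shared Endoderm+SB HEB region in the gene reached 95.8. Hes5 had a single region in all 6 lists, the SB-only one at chr4:154334520-154335422 over its 5′ end. It had a height of 40.9 with 214 ChIP and 27 input tags, and an Endoderm HEB region not listed for the gene lay 1843 bp away. Maml2 and Maml3, which encode coactivators of Notch, had 1 each, at 54.0 and 25.1, and that of Maml3 adjoins an Endoderm HEB region 911 bp away. Maml3 had far higher HEB regions elsewhere in the gene in Endoderm HEB, up to 223.

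Of 62 neural transcription factors 7 had SB-only regions, all of them homeobox, paired box or SOX genes. Emx2, a dorsal forebrain regulator, had one of height 80.9 and enrichment 42.0 at chr19:59540387-59540925, 540 bp beyond the gene. Its regions elsewhere reached 29.96 in ESC HEB, 39.4 in ESC+SB HEB, 30.6 in Endoderm SMAD2/3 and 33.1 in Endoderm HEB. Dbx2, a ventral spinal cord factor, had one of 75.9, and Lmx1a, a roof plate and midbrain factor, had 3 of 52.7, 48.3 and 47.7. Sox3, a SOXB1 factor of neural progenitors, had one of 54.3 that lay 290 bp from an Endoderm SMAD2/3 region. Pax3 and Pax7, factors of the dorsal neural tube, had SB-only regions of 63.5 and 62.8, below their highest Endoderm HEB regions of 635 and 121. Six6, an eye and pituitary factor, had its only region of the 6 lists, of height 30.9, 250 bp beyond the gene.

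**Figure D4:**
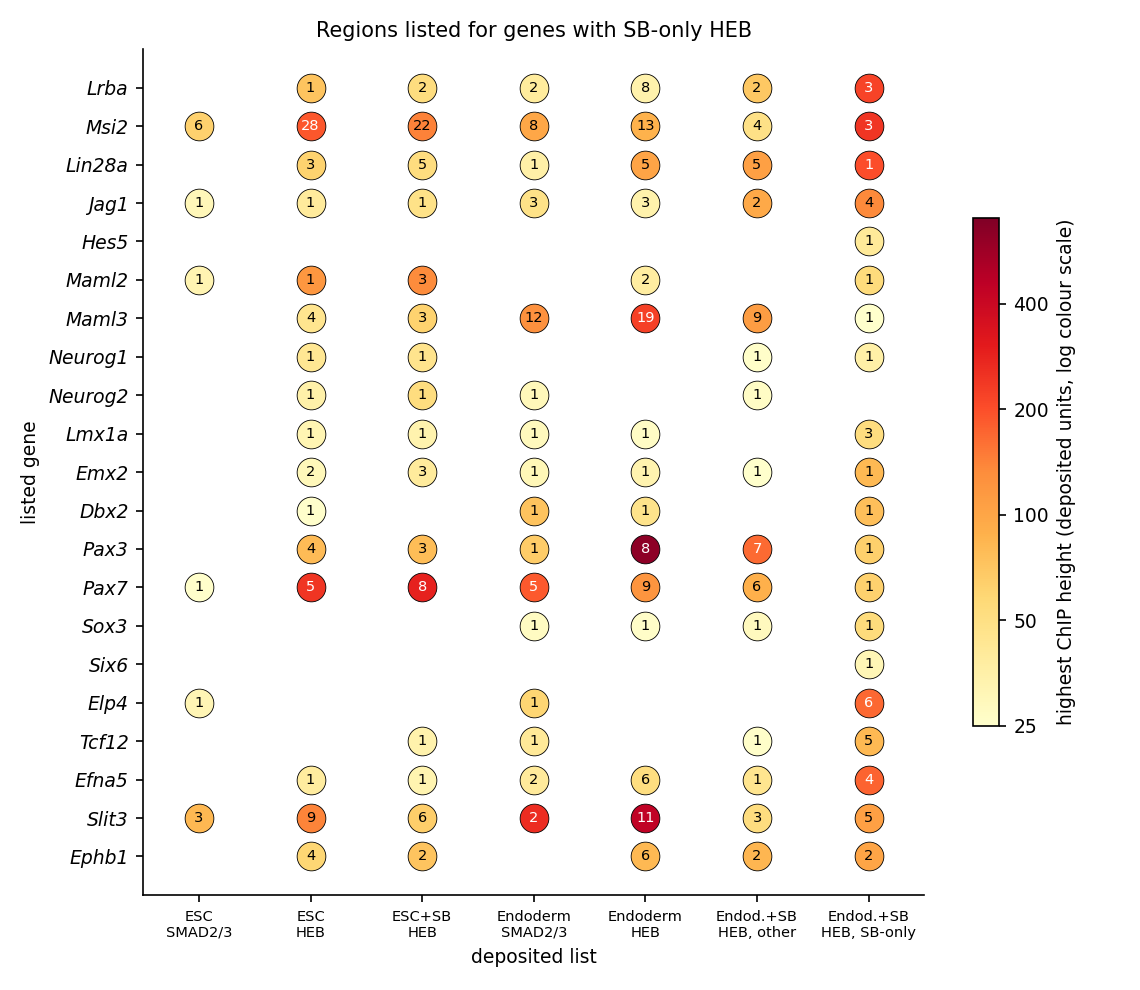
Regions listed for selected genes with SB-only HEB, and for Neurog2, in each list; numbers are region counts and colour is the highest ChIP height (deposited units, log scale). Hes5 and Six6 are filled in the SB-only column alone, and Neurog2 is empty there.

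Tcf12, the gene of HEB itself, had 5 SB-only regions inside it. Their heights were 81.2, 52.1, 51.4, 40.0 and 36.1, and they lay 135434 to 266066 bp from the 5′ end. At the 5′ end Tcf12 had low regions only, at 33.9 in ESC+SB HEB, 41.2 in Endoderm SMAD2/3 and 25.7 in Endoderm+SB HEB, and the lists ESC SMAD2/3, ESC HEB and Endoderm HEB had none. No region of another list was thus placed in the body of the gene. Tcf3 had its only region of the 6 lists over its 5′ end, at chr10:79896233-79897077, of height 33.7 with 160 ChIP and 35 input tags. Id3, an inhibitor of E proteins, had one of 37.9 that lay 125 bp from an Endoderm HEB region and so marks no separate site. In all, 3 of the 7 E protein and Id genes had an SB-only region (42.9%), against 8.15% of all protein-coding genes. Of the 7, 5 had a shared Endoderm+SB HEB region and 6 an ESC+SB HEB region, and the list is short.

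Elp4 had 6 SB-only regions, of heights 168, 70.3, 60.6, 38.1, 36.6 and 25.1. It encodes a subunit of the Elongator complex and is the protein-coding neighbour of Pax6, an eye and forebrain regulator whose distant enhancers are known to lie within Elp4. The only other regions of Elp4 were 31.4 in ESC SMAD2/3 and 59.0 in Endoderm SMAD2/3, and no other HEB list had one. In Pax6 itself HEB was listed 10 times in ESC HEB (up to 76.0), 10 in ESC+SB HEB (up to 92.6), 5 in Endoderm HEB (up to 50.8) and 2 in Endoderm+SB HEB (up to 140). None of those in Pax6 was SB-only. Elp4 came in as a gene with 3 or more SB-only regions, and Pax6 was picked out after its values were seen.

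**Figure D5:**
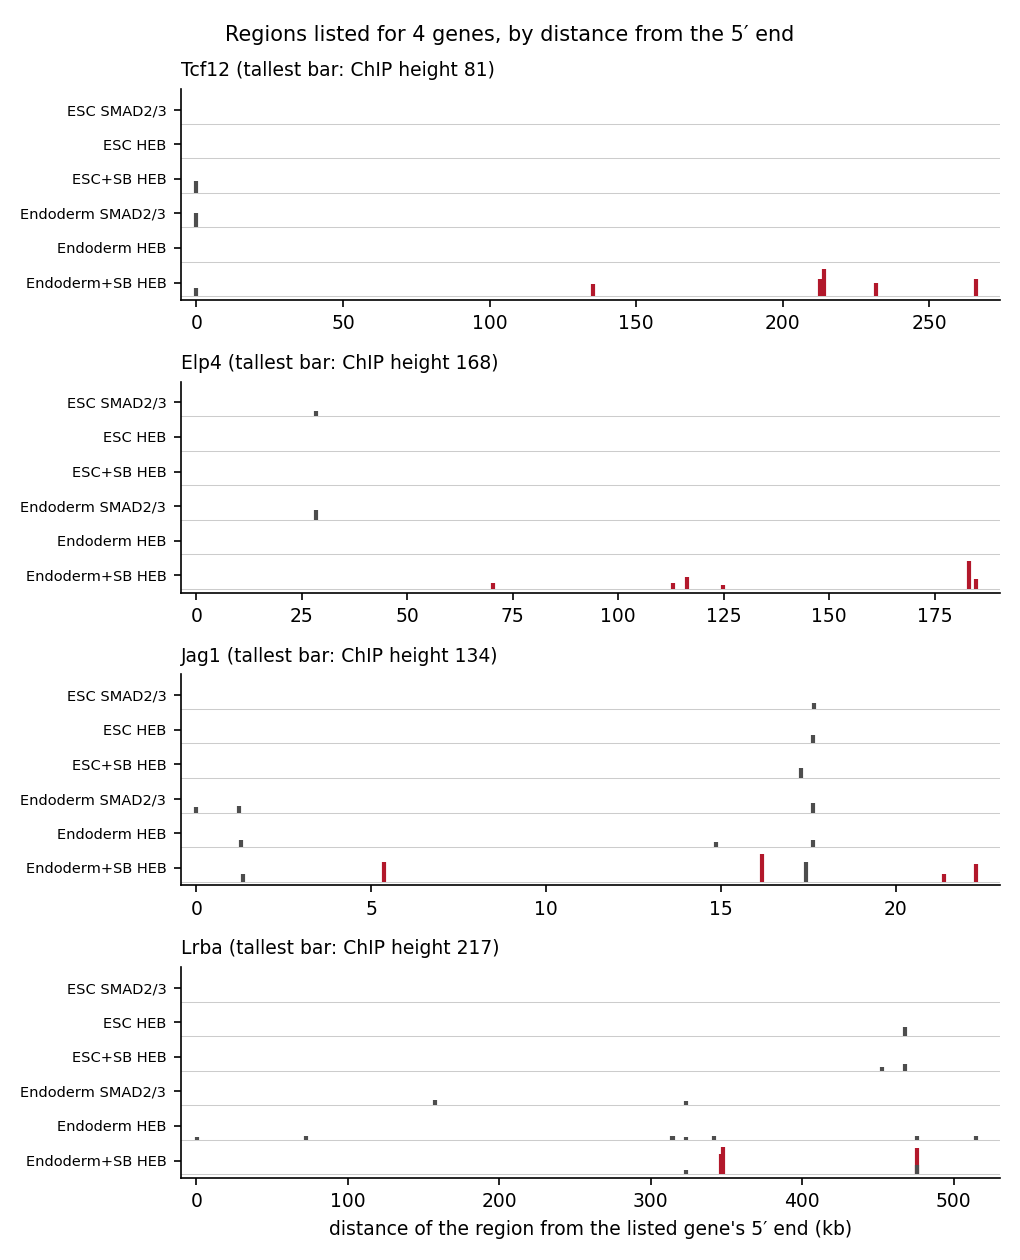
Regions of the 6 lists listed for Tcf12, Elp4, Jag1 and Lrba by distance from the listed 5′ end (kb); bar height is ChIP height, scaled in each panel to the tallest bar, and red bars are SB-only (in Lrba a shared bar is drawn over an SB-only one). By the rule no SB-only bar overlaps a region of another list. In Tcf12 the other lists have bars at the 5′ end only, and in Elp4 no other HEB list has a bar.

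Genes of axon guidance and of synapses were listed in larger shares. An SB-only region was listed for 14 of 30 axon guidance genes (46.7%) and for 7 of 30 genes of neuronal structure and synapse (23.3%), against 8.15% of all protein-coding genes. The same genes had Endoderm HEB regions in 26 and 20 cases, against 5441 of 21896 protein-coding genes. Shared Endoderm+SB HEB regions were listed for 17 and 12 of them, against 3715 of the 21896. Larger shares were thus not particular to SB-only regions. Of the axon guidance genes 1, and of the synapse genes none, was listed for SB-only regions alone. Efna5, an ephrin ligand, had 4, led by one of 174 at chr17:63202348-63203508, while its highest other region was 52.4 in Endoderm HEB. Slit3, a repulsive guidance ligand, had 5 of 25.0 to 107, below its highest Endoderm HEB region of 450. Slit1 and Slit2, of the same family, reached 83.9 and 99.1, and Ephb1, an ephrin receptor, reached 101 in a region that adjoins an Endoderm HEB region 551 bp away. Robo2, a Slit receptor, had a pair of 28.3 and 38.3 and no region in any other list. The synaptic adhesion gene Nrxn3 had 5 of 27.0 to 46.5, and the cell adhesion gene Nrcam 3 of 27.7 to 79.0. Many of these genes are long, and gene length was not taken into account.

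Genes of the other lineages were listed about as often as the 8.15% of all protein-coding genes, or less often, and the lists are short. None of 20 definitive endoderm genes had an SB-only region, while 19 of them had one in Endoderm HEB and 6 in Endoderm+SB HEB. Of 23 mesoderm genes, Wnt3a, a Wnt ligand of the primitive streak, had 2 (85.3 and 36.4) and Tbx5, a heart and limb factor, had 1 (30.2). Of 20 pluripotency genes, Lin28a, an RNA-binding protein and the gene listed as Lin28, had the one of 201 named above, 15399 bp from its 5′ end. That region lay only 1283 bp from a region over the 5′ end of another gene, Dhdds. Other regions of Lin28a reached 107 in Endoderm+SB HEB and 102 in Endoderm HEB. Of 25 Nodal and activin genes, Acvr2b, an activin receptor, had 1 of 29.99 and Smad2 had 1 of 26.2 over its 5′ end.

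In all, 1828 genes were listed for an SB-only region, and 726 of them (39.7%) were listed for no other region of any list. The others were already listed elsewhere, 797 (43.6%) in Endoderm HEB, 717 in ESC+SB HEB and 702 in ESC HEB. Only 89 genes had 3 or more. Macrod2 led with 11, followed by the gene now named Lrmda with 8 and Prdm16, a zinc finger regulator of brown fat and neural progenitors, with 7. Macrod2 regions ranged from 25.9 to 104 and Prdm16 regions from 29.0 to 110, the tallest of which adjoins an Endoderm HEB region 842 bp away. Clybl, Ctnna3, Elp4, Ptprm and Tmtc2 had 6 each. Gli3, the main repressor of Hedgehog targets, had 5, of 27.0 to 78.6. Ehbp1, Nbea, Nrxn3, Ptprg, Slit3, Tcf12 and Tenm4 also had 5 each. A Macrod2 region lay 1967142 bp from the 5′ end, and gene length was not taken into account.

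At 5′ ends, 929 protein-coding genes (4.24%) had an SB-only region within 1 kb. The tallest, picked out after their values were seen, were Zfpm1 (141), Sorbs2 (90.3), Spsb1 (89.4), Gyltl1b (89.0) and Ptprz1 (82.2). Zfpm1 lay 1278 bp and Gyltl1b 342 bp from an Endoderm HEB region, and Ptprz1 109194 bp. Some of these regions were listed for miRNA genes, likewise picked out afterwards. Mir484 had one of 58.3 over its 5′ end, which was also that of an overlapping gene, and Mir219-1, whose products are known from oligodendrocytes, had 2, one of 30.7 and one of 28.0 that covered the 5′ end of Ring1. Mir707 had one of 25.7. The mature RefSeq miRNAs of the 2 taller genes are shown with the seed, bases 2 to 8, in capitals, and no pair of them shares a seed.
mmu-miR-484: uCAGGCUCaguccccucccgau
mmu-miR-219a-5p: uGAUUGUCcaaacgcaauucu
mmu-miR-219a-1-3p: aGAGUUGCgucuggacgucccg

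Regions away from promoters were also assigned to the nearest 5′ end that a region of any list covers, 6472 genes in all. This assignment was added after the listed genes had been seen. A gene of the 3 neural lists was nearest for 129 of 2843 SB-only regions (4.54%, 95% CI 3.80 to 5.37) and for 213 of 3805 shared ones (5.60%, 4.89 to 6.38). Among covered 5′ ends, a neural gene was thus not more often nearest for SB-only than for shared regions. Only 71 of the 106 neural, 17 of the 20 definitive endoderm and 13 of the 30 axon guidance genes had a covered 5′ end. Regions inside Lmx1a and Dbx2 were thus assigned to other genes. The covered 5′ ends also come from the lists that define shared regions, so this cannot decide which regions lie nearer neural genes. Distances here run to the region over the 5′ end. Definitive endoderm genes were nearest for 7 (0.246%) and 19 (0.499%). Axon guidance genes were nearest for 54 (1.90%, 1.43 to 2.47) and 43 (1.13%, 0.819 to 1.52). The 129 regions were spread over 44 neural genes, led by Pax6 with 11, Nr2f1, a nuclear receptor of forebrain patterning, with 8, and Emx2, Hes1, Jag1, Lhx2 and Sox3 with 6 each. The tallest of them was the region of height 230 on chromosome 14. It lay 4697 bp from the 5′ end of Fezf2, a forebrain zinc finger factor, and adjoins an Endoderm HEB region 378 bp away. Next came the Lrba regions of 217 and 210, 23713 and 152246 bp from the 5′ end of Mab21l2. The one of 210 adjoins an Endoderm HEB region 289 bp away. A region of 198 lay 21605 bp from the 5′ end of Fezf1, a factor related to Fezf2. The distances were long, with a median of 157363 bp for SB-only and 82975 bp for shared regions, so a nearest gene is a position and not a target.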

How the data were processed

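HEB and SMAD2/3 ChIP-seq was available as 6 lists of enriched regions, 1 per ChIP library, and 4 input libraries entered through the lists' background columns. Per the labels, libraries were sequenced on a Genome Analyzer II. CASAVA 1.8.2 and genome build mm9 are named in the submitters' processing notes. The aligner, peak caller and gene annotation were choices not given in the sources used here. Per the file headers, each region has the count of ChIP and of input tags, a height (signal) at its summit with no stated scaling, and a ratio of ChIP to input tags computed by the authors (tag enrichment). The deposited column headed as a −log10 q-value, treated as a score, was implausible on that scale and not used. Region coordinates are mm9, as deposited.

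An overlap of 1 bp made a region shared. Regions were compared with Python 3.11.15, pandas 2.3.3 and SciPy 1.17.1, tested on simulated lists and against bedtools 2.31.1. Adjoining means a gap of at most 1 kb. Shares have exact Clopper-Pearson 95% intervals, and differences of shares normal ones; both cover counting error only. Standardization used 5 quintiles, with 10 deciles as an alternative. Symbols were matched to RefSeq (GRCm38.p6), which served for names, neighbours, promoters and miRNAs, for 10639 of 10730 (99.2%). Named genes were Lrba, Neurog1 and Neurog2, the 12 SB-only regions of highest height and of highest enrichment, members of 10 gene lists, genes with 3 or more SB-only regions, and 3 regions on each side of the rule's edge. The regions, gene lists and comparisons were chosen with earlier results of these data known. Alternatives were the overlap rule, minimum height or enrichment, and the promoter and adjoining distances. Regions on the mitochondrial chromosome were left out.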

Additional observations from a re-analysis of the deposited data

Results flagged for a closer look

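The Endoderm+SB HEB list held 2 regions on the mitochondrial chromosome, outside the comparisons, with more ChIP than input tags. The first, at positions 1 to 6520, held 73905 ChIP tags against 31743 input tags, with an enrichment of 2.33. The second, at 10922 to 15772, had 69118 and 27409 tags and an enrichment of 2.52. Both enrichments were under the lower quartile of 7.40 of the SB-only regions, and with 1 library their source was not tested.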

How the results depend on the processing

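The count of SB-only regions, their promoter-proximal share, their adjoining share, their median height and the number of neural list genes were recomputed under the alternatives that bear on each, and the adjoining share was not recomputed where a region within 1 kb counts as shared. A minimum height of 30 left 2394 regions, with a promoter-proximal share of 16.5% and a median height of 41.03. A minimum tag enrichment of 5 gave a promoter-proximal share of 19.7% and a median height of 34.6. The adjoining share was 7.46% when a region counted as shared only where at least 50% of it was covered, and 14.9% with a gap of up to 5 kb. The promoter difference was -10.03 points at equal tag enrichment, against -19.4 at equal height, and the cause was not tested. The number of neural list genes ran from 9 to 15 around 12. No direction reversed under these alternatives. No paired analysis was possible because each group held 1 library and no result comes from a test, and no replicate could be left out. A low region missing from another list may lie under that list's threshold. Of the SB-only regions, 734 (19.8%) had a height of 50 or more, against 23.6% of shared regions. Heights have no stated scaling between lists, so this does not show what height those places had in Endoderm HEB.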
